A study of Homo sapiens with 4 samples.

Results

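The hypoxia response and glycolysis genes are a set of 36 genes around the hypoxia-inducible factor HIF: its subunit gene HIF1A, regulators and targets of HIF, and the enzymes that carry glucose to lactate. They were taken by gene symbol. A gene's value came from the probe set with the highest mean log2 signal among those that carry its symbol alone. This gave values for 33 of the 36 genes, out of 18132 genes in all. CA9 and SLC16A3 had no such probe set in the platform table used here, and the 5 probe sets of SLC2A3 carried several symbols. EGLN3 was below the dim-signal floor of 63.0 on all 4 arrays, with signals of 13.3 to 15.9, so 32 genes were compared. For the comparison the 22 other genes (19 with a value, 18 above the floor) were set against the 14 glycolytic enzymes. Below, "enzymes" means these 14 glycolytic enzymes only, and "genes other than enzymes" means the 22 HIF pathway or target genes. Some of the 22 encode enzymes of other kinds, such as the prolyl hydroxylase EGLN1 and the kinase PDK1.

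The cells were U87MG, an established human glioblastoma line cultured in DMEM with 10% fetal bovine serum. They were exposed for 24 h to 10 µM mycophenolic acid (MPA) with 100 µM guanosine, to 10 µM MPA, to 100 µM guanosine, or to DMSO as the control. MPA inhibits IMP dehydrogenase, which makes the precursor of guanine nucleotides; cells can instead take guanosine up and salvage it past that step. Total RNA of each condition was read on 1 Affymetrix PrimeView array, so each difference below is between 2 arrays, has no replicate check and carries no p-value. Markers of glioma and mesenchymal cells, such as VIM at 18322 to 20015 and CD44 at 5811 to 6286, were checked, with 7 of 12 markers above the floor on all arrays, whereas S100B, SOX2, AQP4 and FABP7 were below it on all 4. Of 5 leukocyte markers measured, only CD68 was above the floor, and the defining leukocyte gene PTPRC lay between 10.3 and 11.7. The summed leukocyte markers, nearly all CD68, were 1411 with both compounds, 1973 with MPA, 1435 with guanosine and 1297 in the control. The neuron and oligodendrocyte sum, mostly SNAP25, was 1495 with both compounds, 2109 with MPA, 1456 with guanosine and 1364 in the control, with 2 of 5 markers above the floor on all arrays. The epithelial sum was 233 with both compounds, 294 with MPA, 245 with guanosine and 256 in the control, with 0 of 5 such markers. The endothelial and pericyte sum was 643 with both compounds, 533 with MPA, 595 with guanosine and 625 in the control, with 4 of 6. Thus 3 of these 4 sums were highest and 1 was lowest with MPA, and their part in the values below was not tested.

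HIF is a pair of proteins. Its alpha subunit is made all the time and, in oxygen, is hydroxylated by the prolyl hydroxylases EGLN1 and EGLN3, bound by VHL and degraded, so that HIF activity can differ while the HIF1A mRNA stays level. When the alpha subunit persists, it pairs with ARNT on short DNA elements and raises genes for glucose uptake, glycolysis, angiogenesis, acid export and the removal of mitochondria, and also its own hydroxylases. Glioblastoma cells are known for high glycolysis and for HIF activity around necrosis. The arrays read mRNA and give no measure of HIF protein, of oxygen or of glucose use.

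The core letters of a HIF element are ACGTG or GCGTG. They were searched on both strands in the 250 bases before each RefSeq transcription start (build GRCh38.p14). The palindrome CACGTG holds ACGTG on both strands and is also the E-box bound by MYC and related factors. Windows were found for 32 of the 36 genes, and not for VEGFA, BNIP3L, NDRG1 and SLC2A3. Either core occurred in 37 of the 60 windows of these genes (61.7%), against 43.2% of all 35116 windows; for ACGTG alone the shares were 38.3% and 18.5%. Several windows of 1 gene can overlap, so the 60 are not independent. The 8 stretches below are examples. Some come from genes that were higher with guanosine than in the control, by 0.27 (BNIP3) to 0.77 (ANGPTL4) on the log2 scale. Others come from enzymes that hold the same letters and differed by at most 0.19 (PGK1, GAPDH and LDHA). Further genes higher with guanosine, such as BHLHE40 (0.57), also held core letters and are not printed. HK2 and LDHA each had another window with core letters, which is not printed. The window of SLC2A1, 0.51 above control, held neither core. Capitals mark the core letters. They are ANGPTL4 at chr19:8363906-8363940 (plus strand), ANKRD37 at chr4:185396664-185396717 (plus strand), EGLN1 at chr1:231422288-231422315 (minus strand), BNIP3 at chr10:131982008-131982081 (minus strand), HK2 at chr2:74833883-74834098 (plus strand), PGK1 at chrX:78104022-78104084 (plus strand), GAPDH at chr12:6535168-6535203 (plus strand) and LDHA at chr11:18394363-18394509 (plus strand).
ANGPTL4: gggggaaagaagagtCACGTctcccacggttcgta
ANKRD37: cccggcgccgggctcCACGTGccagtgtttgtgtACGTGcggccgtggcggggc
EGLN1: gcggggccgtggtgtACGTGcagagcgc
BNIP3: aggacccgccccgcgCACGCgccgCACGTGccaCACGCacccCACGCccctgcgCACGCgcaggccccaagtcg
HK2: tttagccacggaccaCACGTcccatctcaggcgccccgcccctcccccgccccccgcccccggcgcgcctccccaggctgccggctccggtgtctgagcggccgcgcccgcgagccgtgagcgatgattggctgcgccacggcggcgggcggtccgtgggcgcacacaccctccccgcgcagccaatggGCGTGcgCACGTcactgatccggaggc
PGK1: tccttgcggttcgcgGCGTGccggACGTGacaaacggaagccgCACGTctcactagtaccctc
GAPDH: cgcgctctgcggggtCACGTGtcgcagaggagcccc
LDHA: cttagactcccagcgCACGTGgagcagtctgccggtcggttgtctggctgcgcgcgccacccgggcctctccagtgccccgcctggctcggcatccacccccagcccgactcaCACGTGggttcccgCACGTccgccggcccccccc

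A match is a run of letters and not a measured binding site. Among the genes other than enzymes 19 of 26 windows held either core (73.1%), and among the enzymes 18 of 34 (52.9%). Windows were counted here and not genes, and most windows of HK1 and of PFKM held neither core. By gene, PGAM1 was the only glycolytic enzyme of the set with neither core in any window. Of the others with windows, EGLN3, P4HA2 and SLC2A1 held neither. The shares by window therefore do not rank the classes by gene. ACGTG alone was in 38.5% of the windows of genes other than enzymes and in 38.2% of those of enzymes. The LDHA stretch printed here holds 2 copies of CACGTG and a further ACGTG on the minus strand, and its mRNA differed from control by 0.01 on the log2 scale with guanosine.

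In guanosine against control the genes other than enzymes lay higher than most of the enzymes. All 18 genes other than enzymes were higher with guanosine, with a median log2 difference of 0.42 and a range of 0.0038 to 0.77. The enzymes ran from -0.15 to 0.69 (HK2), so only ANGPTL4 lay above all of them. The next enzyme after HK2 was ENO2 at 0.25. HIF1A, P4HA1 and P4HA2, at up to 0.14, lay below ENO2, and VEGFA, at 0.25, was level with it. The 14 enzymes had a median of 0.03, and only HK2 among them passed the lower of 2 marks used here, a log2 difference of 0.32 or a ratio of 5 to 4; the upper mark was 1.5-fold. Over all 32 genes 28 were higher by any amount, against 49.4% of the 10919 genes compared, whose median was -0.0011. Past the lower mark 13 of the 32 were higher and 0 lower, against 3.49% and 2.01% of all genes. At 1.5-fold 4 of the 32 were higher and 0 lower, against 0.339% and 0.11% of all genes. The 12 poly-A spike-in probe sets, which read bacterial transcripts spiked in ahead of the labelling step, were also higher than on the control array, with a median log2 difference of 0.22 and 12 of 12 higher; with both compounds the median was 0.27 and with MPA -0.29. The 6 background probe sets of high GC content went the other way, with medians of -0.15 with both compounds, 0.26 with MPA and -0.08 with guanosine. Their part in the differences was not tested. In RNA from a culture, fewer cells that express a gene and less of its RNA per cell cannot be told apart.

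**Figure D1:**
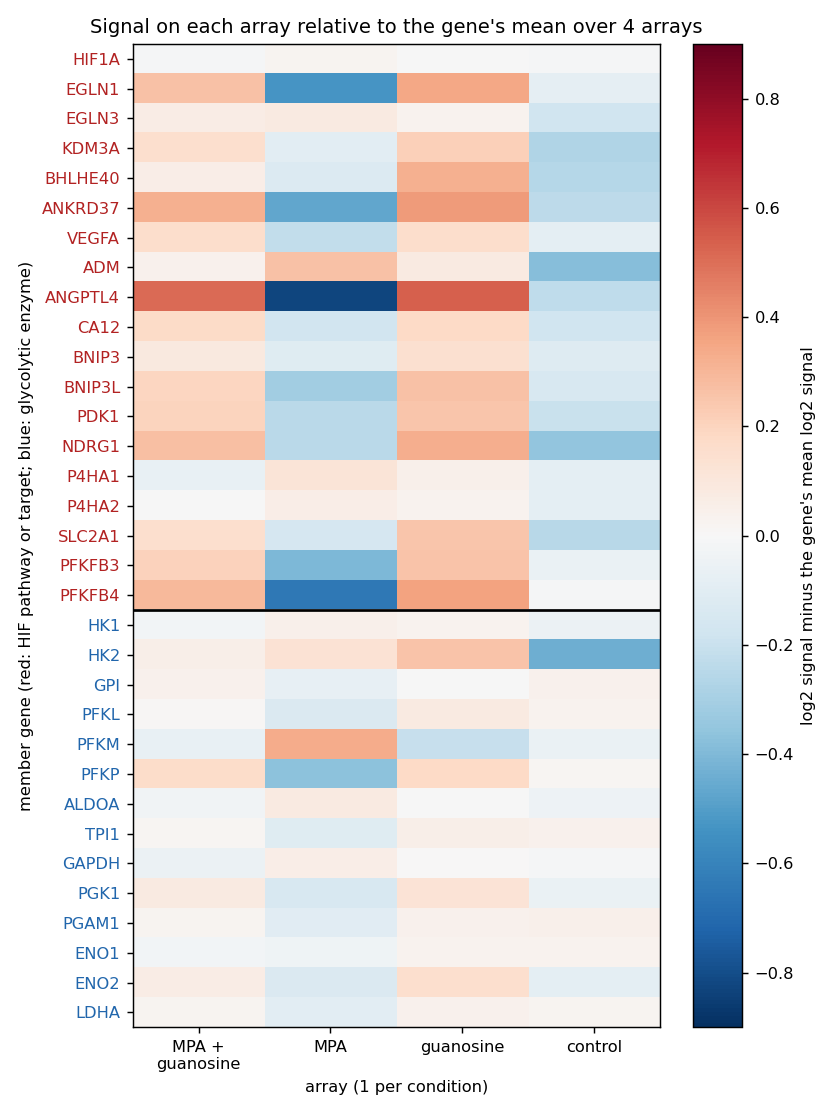
Log2 signal of the 33 measured genes on each array minus the gene's own mean over the 4 arrays, with genes other than enzymes in red type and glycolytic enzymes in blue type. The arrays with guanosine are high in most rows of the upper block, the MPA and control arrays are low there, and most enzyme rows are pale; EGLN3 is shown although it was below the floor on all arrays.

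The 4 genes past 1.5-fold were ANGPTL4, HK2, NDRG1 and ANKRD37. ANGPTL4, a secreted inhibitor of lipoprotein lipase, had signals of 384.4 with both compounds, 152.4 with MPA, 391.4 with guanosine and 230.2 in the control. Its arrays with guanosine were thus close together, and both were above the 2 arrays without it. The guanosine array was 1.70-fold above control and the array with both compounds 1.67-fold. Only 1 probe set read ANGPTL4. NDRG1, a stress-responsive gene used as a hypoxia marker, had 2387 with both compounds, 1672 with MPA, 2490 with guanosine and 1549 in the control, which put guanosine 1.61-fold above control. Its 4 other probe sets above the floor were also higher with guanosine, by 0.32 to 0.56 on the log2 scale. These 4 were dim, with signals of 49.8 to 100.3 near the floor of 63.0.

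ANKRD37, an ankyrin repeat gene known as a direct HIF target, had 386.3 with both compounds, 223.9 with MPA, 403.7 with guanosine and 263.0 in the control. It was 1.54-fold above control with guanosine, and again both arrays with guanosine were above both without. HK2, an enzyme, is the inducible hexokinase that traps glucose in the cell, and it had a different order. Its signals were 1319 with both compounds, 1396 with MPA, 1518 with guanosine and 940.8 in the control, so that all 3 treated arrays lay above control and the MPA array lay above that of both compounds. The value rests on 1 probe set; the other one above the floor was dim, at 70.5 to 74.0, and differed by -0.07 with guanosine. HK1, the constitutive hexokinase, differed by 0.08.

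Among the genes around HIF itself, EGLN1, KDM3A and BHLHE40 were higher with guanosine. EGLN1, the main oxygen-sensing prolyl hydroxylase, read 1526 with guanosine against 1135 in the control, which is 0.43 on the log2 scale. KDM3A, an H3K9 demethylase induced by HIF, read 1075 with guanosine against 769.7 in the control, or 0.48. BHLHE40, a transcriptional repressor of the clock and hypoxia responses, read 440.7 with guanosine against 296.2 in the control, or 0.57 on the log2 scale and just under the 1.5-fold mark. Both other probe sets of EGLN1 and of KDM3A lay on the same side, at 0.38 and 0.43 for EGLN1 and 0.59 and 0.71 for KDM3A. BHLHE40 was read by 1 probe set.

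HIF1A, the oxygen-regulated subunit, depended on the probe set. On the brightest one its signals were 7510 with both compounds, 7694 with MPA, 7543 with guanosine and 7523 in the control, a spread of a few percent. All 7 other probe sets above the floor were higher with MPA, by 0.23 to 0.49 on the log2 scale, and higher with guanosine, by 0.21 to 0.36. With both compounds the same 7 lay between -0.03 and 0.07 of control. These 7 were therefore higher with either compound alone and near control with the combination, a pattern the brightest probe set did not show. Which transcripts each probe set reads was not analysed here.

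**Figure D2:**
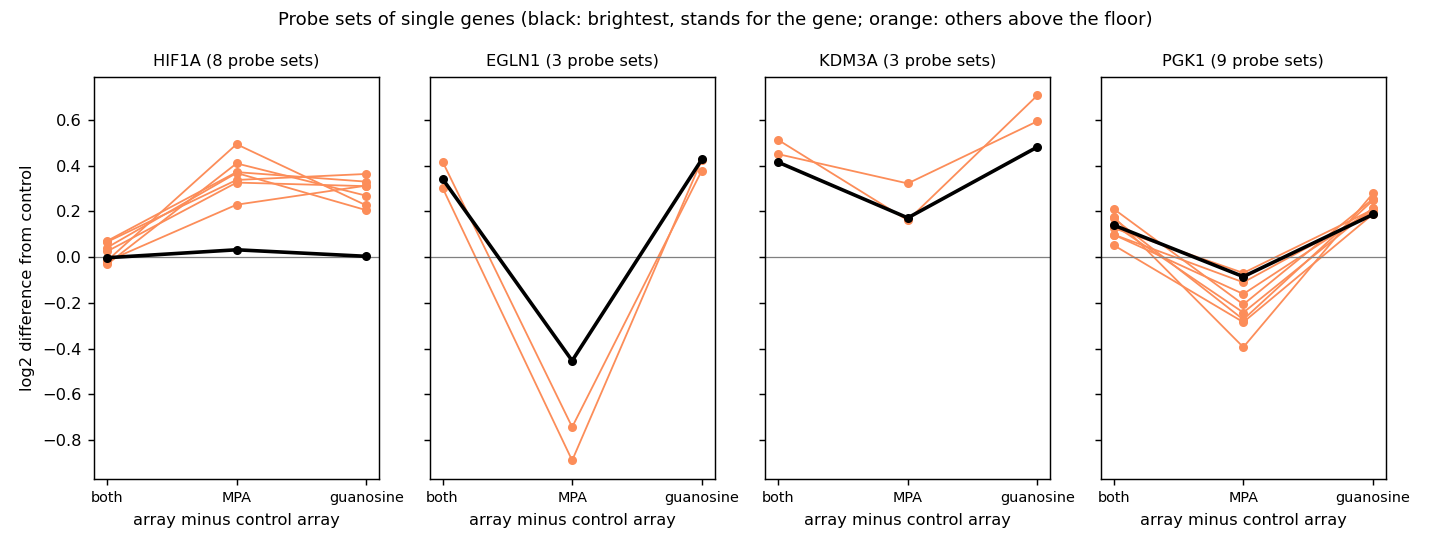
Log2 difference from the control array for each probe set above the floor of HIF1A, EGLN1, KDM3A and PGK1, on the array with both compounds, the MPA array and the guanosine array. For HIF1A the black line of the brightest probe set stays near 0 while the 7 others lie between 0.21 and 0.49 for either compound alone; for EGLN1 all 3 probe sets are lowest with MPA, and for KDM3A and PGK1 all are above control with guanosine.

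Among the secreted factors, VEGFA, the main angiogenic growth factor, had 5778 with both compounds, 4424 with MPA, 5754 with guanosine and 4851 in the control. Guanosine was 0.25 above control on the log2 scale, and 8 of 9 other probe sets above the floor were higher, between -0.10 and 0.38. ADM, the vasodilator peptide adrenomedullin, had 1956 with both compounds, 2291 with MPA, 2012 with guanosine and 1464 in the control. All 3 treated arrays of ADM lay above control, with MPA the highest. The ADM value came from a probe set whose probes can bind other transcripts, and its 2 other probe sets gave 0.38 and 0.27 with guanosine and 0.41 and 0.55 with MPA.

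The genes of pH control, mitochondria and glucose entry were also higher with guanosine, each by less than 1.5-fold. CA12, a membrane carbonic anhydrase, was 0.35 above control with guanosine, and its 3 other probe sets lay between 0.31 and 0.40. PDK1, the kinase that shuts the pyruvate dehydrogenase gate into mitochondria, was 0.45 above control. The mitophagy receptors BNIP3 and BNIP3L were 0.27 and 0.41 above it, and 5 of 5 other BNIP3L probe sets were higher. A pair of these 5 gave the same signals on every array, so they are not separate readings. SLC2A1, the glucose transporter GLUT1, was 0.51 above control, with 0.33 and 0.38 on its 2 other probe sets above the floor. The collagen prolyl hydroxylases P4HA1 and P4HA2, which act in the endoplasmic reticulum, differed less, by 0.14 and 0.12.

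The regulators of phosphofructokinase belong to HIF's targets and to glycolysis alike, since they make and break fructose 2,6-bisphosphate. PFKFB3 was 0.32 above control with guanosine on its brightest probe set, just under the lower mark. A far dimmer one, the other above the floor, read -0.25. PFKFB4 was 0.37 above control, and its other one was at 0.12. Among the enzymes themselves the last step, lactate dehydrogenase A (LDHA), had signals of 18776 with both compounds, 17275 with MPA, 18928 with guanosine and 18781 in the control. The MPA array was the lowest of the 4 for LDHA, and the other 3 were within a few percent of each other. GAPDH, the triose phosphate dehydrogenase used as a reference gene, had 16634 with both compounds, 17976 with MPA, 17300 with guanosine and 17169 in the control. Its guanosine and control arrays were close, 0.01 apart on the log2 scale.

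Separate control probe sets of GAPDH, which did not enter its value, gave 3' signals of 17503 with both compounds, 18563 with MPA, 17413 with guanosine and 17677 in the control. These also placed MPA highest, and their 3' minus 5' log2 values lay between 0.09 and 0.13. For the ACTB control probe sets that value was larger, 1.89 with both compounds, 1.72 with MPA, 1.77 with guanosine and 1.82 in the control. The other enzymes near 0 with guanosine were the hexose phosphate isomerase GPI, the liver phosphofructokinase PFKL, the aldolase ALDOA, the triose phosphate isomerase TPI1, the phosphoglycerate mutase PGAM1 and the enolase ENO1, between -0.04 and 0.05. ENO2, the neuronal enolase, was 0.25 above control and PGK1, phosphoglycerate kinase, 0.19; all 8 other PGK1 probe sets were higher, by 0.19 to 0.28. PFKP, the platelet phosphofructokinase, was 0.16 above control and PFKM, the muscle form, was 0.15 below it (-0.15). The brightest enzyme signals were high, and whether differences are compressed there was not tested, and 7 of the 14 enzyme values, against 2 of the 19 others, came from probe sets that can bind related sequences.

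The difference between cells in MPA with and without guanosine was read from both compounds against MPA, which uses the 2 arrays that guanosine against control does not. Here 14 of the 18 genes other than enzymes were higher, with a median of 0.36 and a range of -0.23 to 1.34, while the enzymes had a median of 0.12. Over all 32 genes 23 were higher by any amount, against 51.8% of 11215 genes, whose median was 0.02. Past the lower mark 11 were higher and 1 lower, against 21.6% and 16% of all genes. At 1.5-fold 5 were higher and 0 lower, against 8.47% and 4.77% of all genes. The shares of all genes past these marks were larger here than in guanosine against control. The poly-A spike-in probe sets were above control with both compounds and below it with MPA, so they too were higher here. Their part in these differences was not tested. With the median over a gene's probe sets in place of the brightest one, 3 genes passed 1.5-fold and the median of the genes other than enzymes was 0.13; the same choice left 2 genes past 1.5-fold in guanosine against control.

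ANGPTL4 was again the furthest, 2.52-fold higher with both compounds than with MPA. PFKFB4 followed at 1.91-fold, with 1439 with both compounds and 752.8 with MPA, and its signals of 1509 with guanosine and 1164 in the control completed the 4 arrays; its other probe set above the floor read 0.19 on the log2 scale. EGLN1 was 1.74-fold higher, with 1439 with both compounds, 828.9 with MPA, 1526 with guanosine and 1135 in the control. For both of these genes the MPA array was the lowest. ANKRD37 was 1.73-fold higher and PFKFB3 1.53-fold. PFKFB3 read 2182 with both compounds, 1430 with MPA, 2267 with guanosine and 1817 in the control, and its dimmer probe set read -0.28 in this comparison. The 2 other EGLN1 probe sets gave larger differences, 1.16 and 1.19 on the log2 scale. PFKM was the 1 gene past the lower mark in the other direction, at 865.7 with both compounds and 1145 with MPA.

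A total of 8 of the 32 genes were past the lower mark and higher in both of these comparisons, against 1.48% of 10862 genes: EGLN1, ANKRD37, ANGPTL4, CA12, BNIP3L, PDK1, NDRG1 and PFKFB4. None of the 8 is an enzyme of the 14, where a share of 1.48% would also give few or none. For NDRG1 only 2 of the 4 other probe sets were higher in both compounds against MPA. All 3 others of CA12 and all 5 of BNIP3L were, the latter counting the pair with the same signals. Of the 32 genes 0 were past it and lower in both, against 0.635% of all genes. HK2, ADM and BHLHE40 were among the higher genes in guanosine against control but stood at -0.08, -0.23 and 0.18 when guanosine was added to MPA. Over the 4 arrays, 14 of 18 genes other than enzymes and 3 of 14 enzymes (PFKP, PGK1 and ENO2) had both arrays with guanosine above both arrays without it, against 24.7% of the 11272 genes above the floor on at least 1 array. The 4 exceptions among the 18 were HIF1A, ADM, P4HA1 and P4HA2, which were highest with MPA. The poly-A spike-in probe sets had the same order, with 12 of 12 above control on each array with guanosine and 12 of 12 below it with MPA. The 6 background probe sets of high GC content had the opposite order. Their part in this count was not tested.

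**Figure D3:**
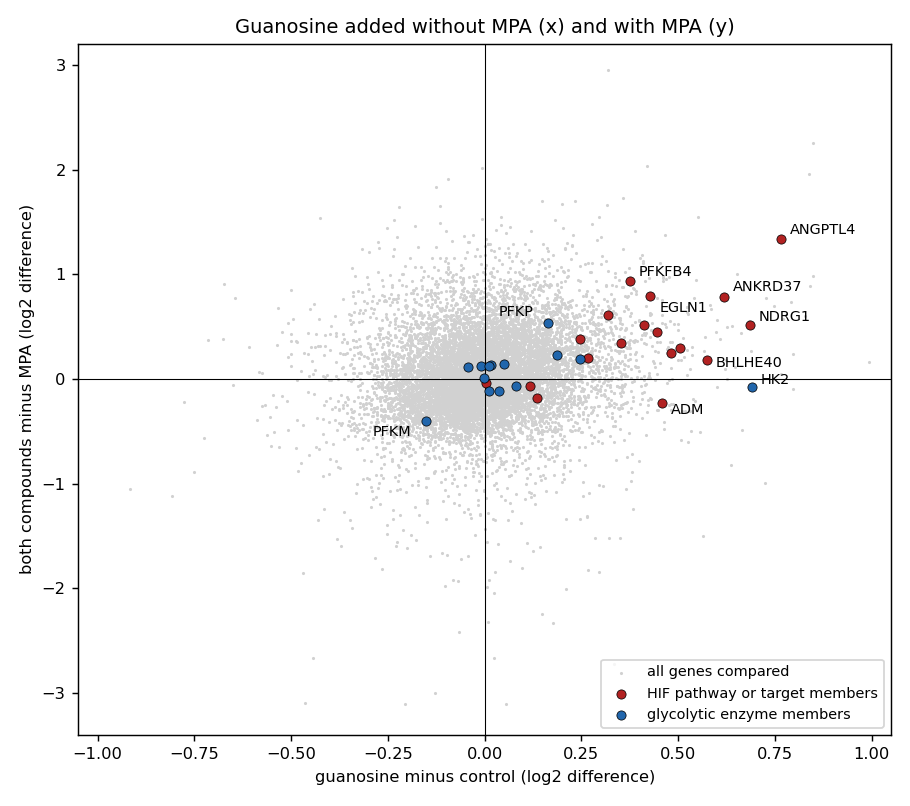
Each point is a gene, with the log2 difference of guanosine minus control on the x axis and of both compounds minus MPA on the y axis; these share no array. Red points are the 18 genes other than enzymes, blue points the 14 enzymes and grey points all 10862 genes compared; the red points all lie right of 0 and 14 of them above 0, while most blue points lie near the origin, with HK2 at 0.69 and -0.08.

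In MPA against control the set was spread to both sides, as all genes were. The median over all 32 genes was -0.04, over the genes other than enzymes 0.01 and over the enzymes -0.08, against 0.01 for all 11204 genes compared. Of the 32 genes 15 were higher by any amount, against 50.8% of all genes. Past the lower mark 3 were higher and 5 lower, against 14.7% and 18.3%. At 1.5-fold 1 was higher and 2 lower, against 5.31% and 7.31%. Each of these shares was somewhat below that of all genes. In 32 genes such gaps come to few genes, so nothing is read from them.

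The genes furthest below control with MPA were PFKFB4, at -0.63, and ANGPTL4, at -0.60, and those furthest above were ADM, at 0.65, HK2, at 0.57, and PFKM, at 0.39. The other probe set above the floor read -0.14 for PFKFB4 and -0.07 for HK2. EGLN1 was lower by 0.45 on the log2 scale (-0.45), and the 2 other EGLN1 probe sets by more, at -0.74 and -0.89. The muscle and platelet forms of phosphofructokinase, the first committed enzyme of glycolysis, lay on opposite sides: PFKM had 1145 with MPA and 873.7 in the control, and PFKP had 1608 with MPA and 2100 in the control. PFKL differed by -0.17. PGK1 differed by -0.09, and all 8 other PGK1 probe sets were lower too, by as much as -0.39. NDRG1, BNIP3, CA12 and SLC2A1, which were among the genes higher with guanosine, differed by 0.11, 0.01, 0.01 and 0.10.

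The same MPA exposure in cells given guanosine was read from both compounds against guanosine, again on the pair of arrays not used in MPA against control. The differences were small in all 32 genes and ran from -0.26 for BHLHE40 to 0.14 for PFKM. Only 3 of the 32 were higher by any amount (PFKM, GPI and VEGFA), against 58.8% of 10861 genes. The members' median was -0.05 and that of all genes 0.02, which is a shift of a few percent in signal. Past the lower mark 0 members were higher and 0 lower, against 0.488% and 0.341% of all genes, and at 1.5-fold 0 and 0, against 0% and 0.0184%.

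Set side by side, the difference with MPA was smaller in size on the arrays with guanosine in 28 of 32 genes; the exceptions were BHLHE40 (0.13 without and -0.26 with guanosine), BNIP3, PDK1 and ENO2. All genes narrowed likewise, with a middle 50% from -0.23 to 0.20 without guanosine and -0.04 to 0.07 with it. The share of all genes with a smaller difference was not counted, so 28 of 32 has no such share beside it. The genes given next are the furthest from 0 in MPA against control. PFKFB4 stood at -0.63 without guanosine and -0.07 with it, ANGPTL4 at -0.60 and -0.03, EGLN1 at -0.45 and -0.08, and PFKP at -0.39 and -0.01. On the other side ADM stood at 0.65 and -0.04, HK2 at 0.57 and -0.20, and PFKM at 0.39 and 0.14. The difference of differences was largest for HK2, at -0.77, and ADM, at -0.69, and on the positive side for ANGPTL4, at 0.57, and PFKFB4, at 0.56. With 1 array in each cell of the design these are values with no test.

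Both compounds against control shares the control array with guanosine against control and gave a like separation. The genes other than enzymes had a median of 0.34, with 17 of 18 higher, and the enzymes a median of 0.00067. Over all 32 genes 24 were higher by any amount, against 54.1% of 10931 genes, whose median was 0.01. Past the lower mark 11 were higher and 0 lower, against 4.5% and 2.1% of all genes. At 1.5-fold 2 were higher (ANGPTL4 at 0.74 and NDRG1 at 0.62) and 0 lower, against 0.421% and 0.137%. ANKRD37 at 0.55 and HK2 at 0.49 were next.

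**Figure D4:**
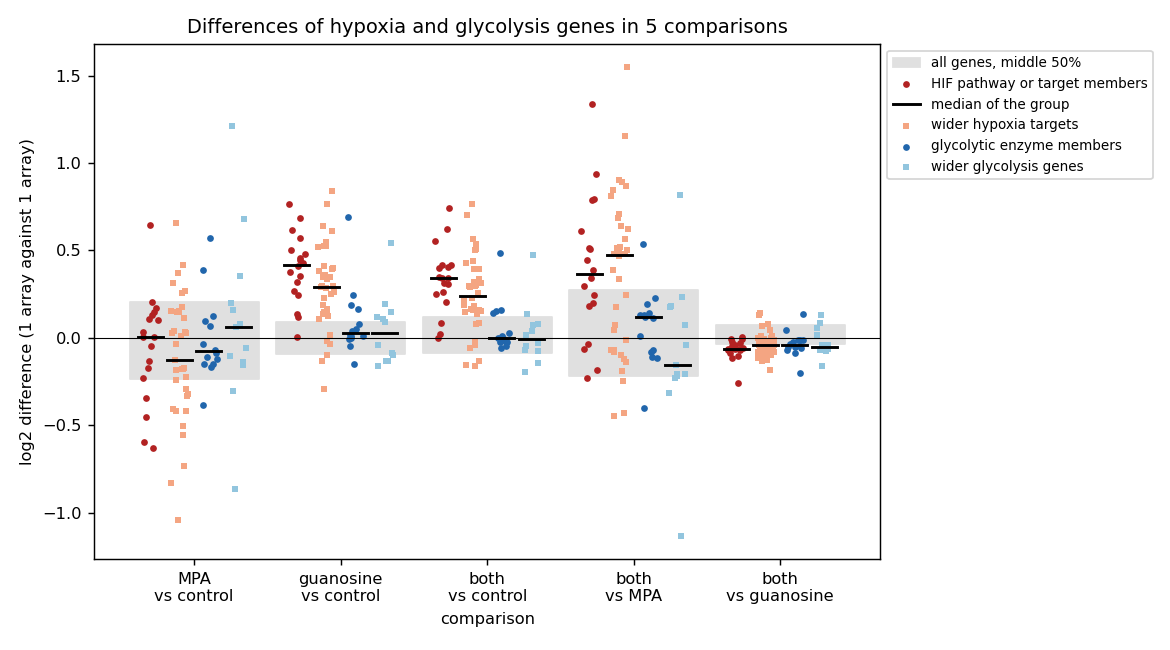
Log2 differences in the 5 comparisons for the genes other than enzymes, a wider list of hypoxia targets, the 14 enzymes and a wider list of glycolysis genes; black bars are medians and the grey band is the middle 50% of all genes compared. In guanosine against control the medians are 0.42 and 0.29 for the hypoxia groups and 0.03 and 0.03 for the glycolysis groups, and in both compounds against guanosine all groups lie near 0.

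Other genes of the pathway were read from lists that hold none of the 36. These lists were also chosen with earlier results of these data known, so their counts are not an independent check. With guanosine against control, 16 of 36 further hypoxia targets were past the lower mark and higher, 4 of them by at least 1.5-fold, and 0 were past it and lower; the median was 0.29. Of all genes 3.49% and 2.01% were higher and lower at that mark, and 0.339% were higher at 1.5-fold. HILPDA, a lipid droplet protein induced by hypoxia, had 895.5 with both compounds, 483.5 with MPA, 944.0 with guanosine and 527.5 in the control. MXI1, a MAX partner that opposes MYC, was 0.77 above control with guanosine and 0.65 with MPA, and ZNF395 was 0.64 above it with guanosine. CSRP2, QSOX1 and KDELR3 were lowest, at -0.29, -0.13 and -0.10. Of these 36 genes 12 were past the lower mark and higher both in guanosine against control and in both compounds against MPA, against 1.48% of all genes.

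With MPA the 37 further hypoxia targets compared had a median of -0.13. Past the lower mark 3 were higher and 10 lower, against 14.7% and 18.3% of all genes, and at 1.5-fold 1 and 3, against 5.31% and 7.31%. VLDLR, a lipoprotein receptor, was at -1.04, the mitochondrial adenylate kinase AK4 at -0.83 and ERRFI1, an inhibitor of EGF receptor signalling, at -0.74. In both compounds against MPA these genes were at 1.55, 1.15 and 0.90, and 22 of 37 on the list were higher past the lower mark and 2 lower, against 21.6% and 16% of all genes. In both compounds against control 11 of 36 were higher at that mark and 0 lower, against 4.5% and 2.1% of all genes. In both compounds against guanosine the counts were 0 and 0, where 0.488% and 0.341% of all genes passed.

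A list of further HIF pathway genes had a smaller median with guanosine than the further hypoxia targets. It leaves out the oxygen sensor EGLN1, which was at 0.43 with guanosine. Over 13 genes of the HIF pathway the median was 0.11 with guanosine, with 1 higher past the lower mark and 0 lower, against 3.49% and 2.01% of all genes. That gene was HIF1AN, the asparagine hydroxylase that blocks HIF's coactivator binding, at 0.41. EPAS1, the gene of HIF-2 alpha, was at 0.53 in both compounds against MPA, and CITED2, which competes for the same coactivators, was at 0.63 with MPA. The 12 further glycolysis genes had a median of 0.03 with guanosine. They held PFKFB2 as the 1 gene past the lower mark, at 0.54, where 3.49% of all genes were higher. With MPA 3 of 13 on that list were higher past the lower mark and 1 lower, against 14.7% and 18.3% of all genes. The highest difference was that of TIGAR, a fructose bisphosphatase and p53 target, with 791.6 with MPA and 341.6 in the control. The lowest was that of BPGM, which makes 2,3-bisphosphoglycerate, with 116.5 with MPA and 212.4 in the control. Genes of the pyruvate gate had a median of 0.0094 with guanosine over 10 genes. With MPA 1 of the 10 was higher past the lower mark and 1 lower, against the same shares of all genes. The lower one was DLAT, a pyruvate dehydrogenase subunit, at -0.63. For 8 genes of gluconeogenesis and the pentose phosphate pathway the guanosine median was -0.00051. Of these, 0 were past the lower mark in either direction, against 3.49% higher and 2.01% lower among all genes.

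The probe sets that did not stand for a gene gave a second reading of 21 members. In guanosine against control 55 of 62 such probe sets above the floor lay on the same side as the gene's value, and in both compounds against MPA also 55 of 62. In MPA against control 48 of 62 did, in both compounds against control 47 and in both compounds against guanosine 50. Probe sets of 1 gene share RNA, array and often transcript, so this is a check of the reading and not of the condition. The counts also hold the pair of BNIP3L probe sets with the same signals.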

How the data were processed

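The deposited file holds probe set intensity on the linear scale for 49395 probe sets on 4 PrimeView arrays, an RMA signal per the labels, with software, version and settings not given in the sources used here. RMA usually brings arrays to one distribution, so a difference in total mRNA per cell may not be visible. The log2 of each value was taken with no pseudocount. Apart from 102 control probe sets, which entered no gene, 44988 probe sets carried 1 symbol in the platform table, 1832 several and 2473 none. A gene's value was its probe set with the highest mean log2 signal, which gave 18132 genes. A gene was compared where its brighter array reached the floor, the median of all non-control values (signal 63.0, log2 5.98). Differences were counted at a log2 difference of 0.32 (a ratio of 5 to 4) and at 1.5-fold. With 1 array per condition there is no test, and precision is limited by the number of arrays. The counting was tested on simulated data. The genes and lists were chosen with earlier results of these data known. All genes of the set are named, and of the wider lists at most the 3 highest and 3 lowest in a comparison. Promoter sequences are RefSeq's (GRCh38.p14). Alternatives were the median of probe sets, no floor, a 75th percentile floor, probe sets ending in _x_at only where no other exists, cyclic loess with 3 iterations (limma 3.58.1, R 4.3.3), arrays shifted to one median, and thresholds of 2-fold and of that lower ratio. Python 3.11.15, numpy 2.4.6 and pandas 2.3.3 were used.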

Additional observations from a re-analysis of the deposited data

How the results depend on the processing

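The medians of the whole set, of the genes other than enzymes and of the enzymes moved by at most 0.1 on the log2 scale in 88 of 90 recomputations. The exceptions came from letting the median over probe sets stand for each gene, which gave the genes other than enzymes 0.12 in MPA against control in place of 0.01, and 0.13 in both compounds against MPA in place of 0.36. No alternative shifted the median of all genes by over 0.1. Counts past 1.5-fold were within 1.5 times of the reported ones in 61 of 80 recomputations. A count that was 0 and stayed 0 was taken as unchanged, which raises this share. The reported count was 0 for genes higher in both compounds against guanosine and for genes lower in all comparisons but MPA against control. With the median of probe sets, the number higher was 0 for MPA against control, 2 for guanosine, 1 for both compounds against control and 3 for both compounds against MPA. The number higher with MPA was 0 where _x_at probe sets served only genes with no other, and 2 after cyclic loess, and the number lower was 1 with the floor at the 75th percentile and 0 after cyclic loess. Past a ratio of 5 to 4, MPA against control had 3 higher and 5 lower, guanosine 13 higher, both compounds against control 11 higher, and both compounds against MPA 11 higher and 1 lower. At 2-fold these became 0 and 0, 0, 0, and 1 higher. PFKFB3 in both compounds against MPA was the single reversal among genes, at -0.11 as the median of its probe sets. Of 660 recomputed gene differences 592 moved by at most 0.1, and the cause of the other moves was not tested. No paired analysis was possible because each condition has 1 array, and no array could be left out.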
